A study of Mus musculus with 4 samples.

Results

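Predicted transcripts are gene models that carry only a placeholder name, a Gm number or the name of a genomic clone beginning with RP23 or RP24. Those described here lie outside every gene with another kind of name on their own strand of the mouse genome. A model was taken when it overlapped no such gene on the same strand, and it was selected on its raw counts, which had to sum to at least 10 over all 4 libraries. The sum takes both genotypes together and was the only measured value used. The rule gave 809 transcripts of the 34745 genes in the table, 751 with Gm names and 58 with clone names. Of these, 502 were intergenic, overlapping no gene with another kind of name on either strand, and 307 overlapped such a gene on the opposite strand. Before the count threshold 8662 predicted models met the positional rule. At the edge, 36 models with a count sum of 9 were left out and 28 with a count sum of 10 were taken. The median count sum was 49, and 698 of the 809 were detected in every library.

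Mammalian genomes are transcribed well beyond their named protein-coding genes. Promoters often fire in both directions, enhancers and gene ends give rise to long noncoding RNAs, and antisense transcripts run across genes on the other strand. Processed pseudogenes are copies of spliced messenger RNAs put back into the genome, and stretches of mitochondrial DNA have been inserted into nuclear chromosomes as well. Setd2 is the methyltransferase behind H3K36me3, trimethylation of histone H3 at lysine 36, which follows elongating RNA polymerase II through gene bodies. The mark is known for restraining transcription that starts inside genes and for its links to splicing and DNA methylation, which makes transcripts outside annotated genes a point of interest when the enzyme is altered.

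RNA was sequenced from T helper 17 (Th17) cultures, the CD4+ T cell subset known for making interleukin 17, grown for 3 days. The cultures started from naive CD4+ T cells of the spleens of C57BL/6 mice. There were 2 wild-type (WT) libraries, numbered 13 and 15, and 2 libraries of the Setd2-CD4 cre genotype, numbered 22 and 24. Cre driven by Cd4 sequences acts in T cells from their development in the thymus on, and which exons of Setd2 it removes is not given in the sources used here. The sample titled 15 carries a cell type label beginning with 14, and the title was followed. Nothing in the labels says whether the replicates are separate animals or cultures. The p-values therefore reflect the spread among these 4 libraries alone, and that spread may be technical.

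Libraries held 11007343 to 12518415 counts. Setd2 itself had 2408 and 2316 counts in the WT libraries against 1476 and 1668 in Setd2-CD4 cre, which was 180 ± 5.13 against 148 ± 6.46 CPM (counts scaled to a library of 1e6 with TMM factors; SD, n = 2). Its log2 fold change was -0.28 and did not pass the test (Benjamini-Hochberg adjusted p in edgeR = 0.0748). The summed level of 8 Th17 markers was 708 to 822 CPM in WT and 1361 to 1567 CPM in Setd2-CD4 cre. Of these 8, all tested, 4 were higher and none lower. Of 5 CD4 T cell markers 1 was higher and 3 lower, and their sum was 2599 to 2749 CPM in WT against 2307 to 2557 CPM. Of 6 CD8 T and NK cell markers 5 were tested, with 1 higher and none lower. The same counts held for 6 myeloid and dendritic markers, and 2 erythroid markers were not tested. All 11 B cell markers were tested, 9 were higher and none lower in Setd2-CD4 cre, and their summed level was 217 to 257 CPM against 516 to 710 CPM. Their part in the results below was not tested. A count of 0 allows up to 3 counts in a library, or 0.228 to 0.292 CPM, for counting error only.

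The sequences that carry the largest named changes and the copies that hold most of the counts are shown first. For the intergenic transcripts with the largest named rises, the first 120 bases of the GENCODE M21 transcript are given 5′ to 3′ on the strand of the transcript, in GRCm38 coordinates.
Gm26917, chr17:39843013-39843132, plus strand: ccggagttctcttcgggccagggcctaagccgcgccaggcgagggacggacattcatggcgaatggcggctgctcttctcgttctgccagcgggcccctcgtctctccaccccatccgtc
Gm4926, chr11:46644887-46645006, minus strand: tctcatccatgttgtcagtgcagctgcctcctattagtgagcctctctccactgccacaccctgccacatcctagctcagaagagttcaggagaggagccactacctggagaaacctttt
Gm8979, chr7:106083927-106084046, minus strand: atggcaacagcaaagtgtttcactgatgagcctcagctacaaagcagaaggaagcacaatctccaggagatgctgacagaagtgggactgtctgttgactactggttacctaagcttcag
None of these 3 stretches held any of the promoter motifs searched below. They lie past the start, so this says nothing about the bases before it and cannot be set against the start windows. For the opposite-strand transcripts with the largest named rises the same stretch is given, which for Gm16201 is a first exon of 82 bases.
Gm4793, chr1:135584773-135584892, plus strand: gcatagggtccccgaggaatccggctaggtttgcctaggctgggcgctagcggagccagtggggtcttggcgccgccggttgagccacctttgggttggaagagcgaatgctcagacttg
Gm42632, chr5:67427993-67428112, plus strand: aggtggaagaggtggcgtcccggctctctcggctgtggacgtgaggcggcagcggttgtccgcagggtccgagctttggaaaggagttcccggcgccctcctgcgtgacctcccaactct
Gm16201, chr7:139950396-139950477, plus strand: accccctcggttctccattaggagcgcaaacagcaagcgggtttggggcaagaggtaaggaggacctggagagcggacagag

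For the transcript with the largest named fall in each class, RefSeq (GRCm38.p6) gives the 250 bases before and 50 bases after the annotated start. Capitals mark CCGGAAG, an ETS-type motif, or GGGCGG, a GC box, on either strand.
Gm13387, chr2:25145438-25145737, minus strand: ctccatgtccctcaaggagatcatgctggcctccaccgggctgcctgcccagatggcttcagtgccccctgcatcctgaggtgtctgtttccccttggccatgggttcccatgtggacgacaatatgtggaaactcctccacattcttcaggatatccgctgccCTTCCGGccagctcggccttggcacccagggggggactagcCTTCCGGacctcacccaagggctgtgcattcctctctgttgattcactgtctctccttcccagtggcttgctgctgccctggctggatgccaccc
Gm12758, chr7:34234127-34234426, plus strand: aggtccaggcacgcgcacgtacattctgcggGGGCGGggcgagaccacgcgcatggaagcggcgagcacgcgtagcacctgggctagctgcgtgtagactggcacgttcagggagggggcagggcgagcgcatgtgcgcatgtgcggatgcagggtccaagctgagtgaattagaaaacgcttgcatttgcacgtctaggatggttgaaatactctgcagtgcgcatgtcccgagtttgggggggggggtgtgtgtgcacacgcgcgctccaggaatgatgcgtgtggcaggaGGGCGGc
The RefSeq start of Gm13387 lies 91 bases from the start in the deposited table, and that of Gm12758 at the same base.

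Many of the transcripts are near-identical to another gene, so that reads from one can be counted for the other. The stretches of 60 coding bases below show the difference, with capitals at the bases that differ.
Gm7367: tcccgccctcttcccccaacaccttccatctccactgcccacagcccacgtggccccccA
Ubald2: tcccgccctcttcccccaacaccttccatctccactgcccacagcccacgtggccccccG
Gm8730: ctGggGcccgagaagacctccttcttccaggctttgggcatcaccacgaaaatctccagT
Rplp0: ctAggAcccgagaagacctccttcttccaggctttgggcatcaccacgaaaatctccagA
Gm7367 differs from Ubald2 at 1 of 492 aligned bases, and Gm8730 differs from Rplp0, an acidic protein of the ribosomal stalk, at 12 of 954. Gm10925, a nuclear insertion of mitochondrial DNA, is identical to mt-Atp6, a subunit of the mitochondrial ATP synthase, over all 678 bases aligned. For that pair the first 60 bases of either gene read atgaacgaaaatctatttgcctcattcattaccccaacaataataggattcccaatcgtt.

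Of the predicted transcripts outside same-strand genes that were called, more were lower than higher in Setd2-CD4 cre. The low-count filter let in more of them through WT, as set out below, so these counts are not evidence of a direction. Among the 480 that passed the low-count filter, 83 fell and 30 rose, and 367 did not pass the test. The falls were 17.3% of those tested and the rises 6.25%, where over all 12927 genes tested 14.5% were called lower and 16.2% higher (edgeR quasi-likelihood test, Benjamini-Hochberg adjusted p at or under 0.05). The share of falls was thus near that of all genes, and the share of rises below it. The median log2 fold change was -0.47, with 319 of 480 below 0, against -0.01 over all genes tested. Of the 83 falls 62 were at least 2-fold, and of the 30 rises 14 were. The counts depended on single libraries, with 26 falls and 7 rises when WT 13 was left out and 21 and 6 when WT 15 was. They were 102 and 33 when Setd2-CD4 cre 22 was left out and 115 and 59 when Setd2-CD4 cre 24 was.

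The intergenic and opposite-strand classes had like shares of calls. Among the intergenic transcripts 322 were tested, 55 fell (17.1%) and 20 rose (6.21%), with a median log2 fold change of -0.37. Among the opposite-strand transcripts 158 were tested, 28 fell (17.7%) and 10 rose (6.33%), with a median of -0.71. Over all 809, the genotypes did not overlap in scaled CPM for 343 that were lower in Setd2-CD4 cre (42.4%) and 134 that were higher (16.6%), against 34.5% and 33.5% of the genes in the table with a count sum of at least 10.

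Low counts limited what could be tested, and the filter did not act evenly. Of the 480 tested, 319 reached the filter's level in both genotypes, 121 (25.2%) in WT only and 24 (5%) in Setd2-CD4 cre only. Over all genes tested those shares were 4.80% and 2.90%. WT only means that both WT libraries reached the level and not both Setd2-CD4 cre libraries, which favours a lower value in Setd2-CD4 cre without fixing it. The counts and medians over tested transcripts therefore describe the data and are not evidence of a direction. Among the 319 that passed in both, 61 fell and 22 rose, with a median of -0.34. A fit over every gene with a count sum of at least 10 covered all 809 and gave a median of -0.43 (the same with the 17 transcripts at 0 in a whole genotype set at the 3-count bound), with 508 of 809 below 0 and 82 called lower and 30 higher.

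Splitting the transcripts by sequence copy separated 2 kinds. A copy was counted when a transcript matched another gene's transcript on the same strand with at least 90% identity over at least 50% of its length, and 195 of the 789 transcripts found in GENCODE M21 did. The 149 tested with a copy had a median log2 fold change of 0.06, with 13 called higher (8.72%) and 17 lower (11.4%). The 317 tested without a copy had a median of -0.74, with 243 below 0, and 16 rose (5.05%) and 64 fell (20.2%). Over all genes tested 16.2% were called higher and 14.5% lower. Of the 317, 106 (33.4%) reached the filter's level in WT only. Among the 180 that reached it in both genotypes 9 rose and 43 fell, with a median of -0.57. Over all 594 without a copy, 272 (45.8%) were lower and 71 (12%) higher without overlap between the genotypes. Of all genes with a count sum of at least 10 those shares were 34.5% and 33.5%. In the fit with the count-sum filter the 594 had a median of -0.58, or -0.56 with the 16 at 0 in a whole genotype set at the bound. The split was chosen after the data were seen. Leaving out Setd2-CD4 cre 24 gave 41 higher and 20 lower with a copy and 17 higher and 93 lower without one, and leaving out WT 15 gave 2 and 3 with a copy and 4 and 17 without one.

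**Figure D1:**
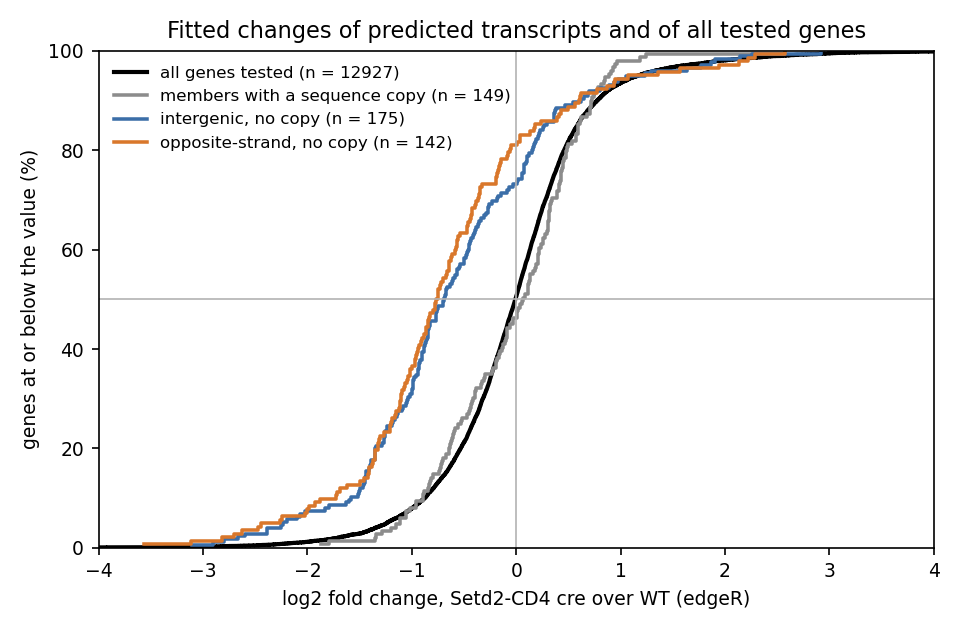
Cumulative percent of genes (y axis) at or below each log2 fold change of Setd2-CD4 cre over WT (x axis, edgeR), for all 12927 genes tested and for the tested transcripts with a sequence copy (149), intergenic without a copy (175) and opposite-strand without a copy (142). The curves of the 2 classes without a copy lie left of the curve of all genes at and below their medians of -0.69 and -0.76, and the curve of the copies, with a median of 0.06, runs beside that of all genes.

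Among those tested, the transcripts without a copy had lower medians than genes with other kinds of names at each level of expression compared. Of the 317, 106 (33.4%) reached the filter's level, 0.843 CPM on library totals, in WT only and 17 (5.36%) in Setd2-CD4 cre only. Over all genes tested those shares were 4.80% and 2.90%. The medians by level therefore depend in part on the filter and are not evidence of a direction. Between 5 and 50 CPM, where 72 transcripts without a copy were tested, their median log2 fold change was -0.75 and 45.8% were called lower, while for 5498 genes with other kinds of names at that level the median was -0.11 and 19.1% were called lower. At the other levels the shares called lower were near those of the other genes. Between 1 and 5 CPM the medians were -0.67 for 172 transcripts and -0.21 for 1755 genes, and 14.0% and 11.8% were called lower. Under 1 CPM the medians were -0.98 for 65 transcripts and -0.13 for 323 genes, with 9.23% and 9.60% called lower. Above 50 CPM only 8 transcripts without a copy were tested, 1 higher and 1 lower (12.5% against 10.9% of 4564 genes), with medians of -0.36 and 0.14. Scaling moved the level of all genes: library totals in place of TMM factors gave a median of -0.16 over all genes and -0.89 over the 317, with 21 of the 480 called higher and 122 lower. The share of higher calls among all called genes then went from 52.7% to 32.9%. Relative to the median of all genes, the median of the transcripts without a copy was -0.74 under TMM and -0.73 under library totals.

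Summed over each library, the 809 transcripts took 1.77% and 1.78% of counts in the WT libraries against 1.95% and 1.65% in Setd2-CD4 cre. The groups overlapped, and the copies set the sum, since they held 85.4% of the counts. The 284 opposite-strand transcripts without a copy summed to 842 and 846 CPM in WT, and to 613 and 682 CPM in Setd2-CD4 cre, 844 ± 2.44 against 647 ± 48.6 CPM (SD, n = 2). Both Setd2-CD4 cre libraries were below both WT libraries, and the means differed 1.30-fold. The 310 intergenic transcripts without a copy summed to 1641 ± 45.8 CPM in WT and 1492 ± 26.0 CPM in Setd2-CD4 cre. These means differed 1.10-fold. Gm26917 alone made up 307 of the latter, and without it the sums were 1632 and 1570 CPM in the WT libraries against 1127 and 1242 CPM in Setd2-CD4 cre, a 1.35-fold difference with no overlap. Gm26917, the largest named rise, was left out after its values were seen, and no transcript that fell was left out. With 2 libraries against 2 the exact two-sided permutation test cannot go below p = 0.33, the value it gave for each of these differences in CPM without a copy.

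**Figure D2:**
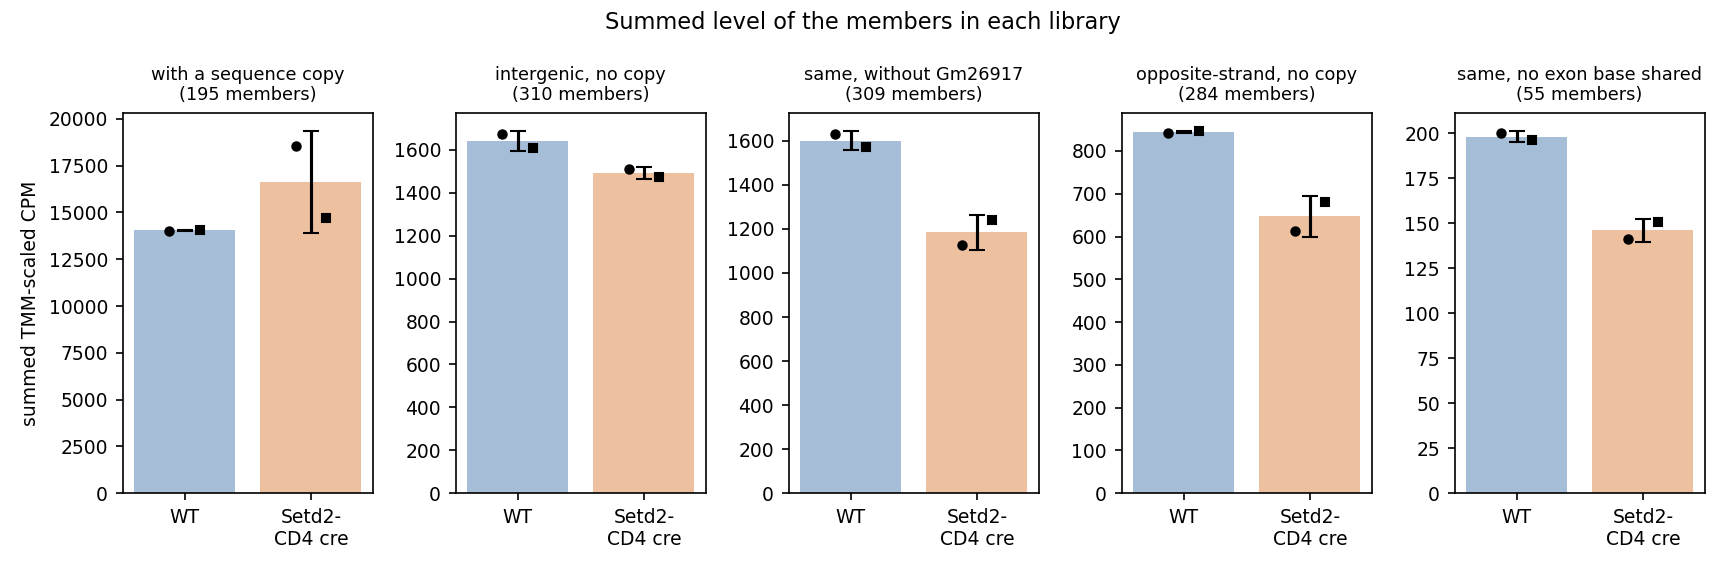
Summed TMM-scaled CPM per library (y axis) for 5 sets of predicted transcripts, with bars at the mean, error bars of 1 SD (n = 2) and points for the libraries (circles for WT 13 and Setd2-CD4 cre 22, squares for WT 15 and Setd2-CD4 cre 24). Transcripts without a copy are lower in both Setd2-CD4 cre libraries, and those with a copy are highest in Setd2-CD4 cre 22 at 18549 CPM. The set without Gm26917 was made after the values of Gm26917 were seen.

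Copies of ribosomal protein genes held 53.0% of all counts on the 809 transcripts. There were 22 such copies, 20 were tested, 5 rose and none fell in edgeR. Of all genes tested 16.2% were called higher, and of genes with other kinds of names above 50 CPM 26.6% were, so the count of rises was near that of abundant genes. None was lower at an unadjusted p under 0.05 either, and DESeq2 and limma called 6 and 1 higher and none lower. Gm15500, an identical copy of Rpl5, a protein of the large ribosomal subunit, was the most abundant with 35396 and 34934 counts in the WT libraries against 39040 and 31885 in Setd2-CD4 cre, 2677 ± 27.5 against 3360 ± 621 CPM. Its log2 fold change of 0.33 did not pass the test (adjusted p = 0.165 in edgeR). Gm10275, a copy of Rpl12, had 1274 ± 21.4 against 1620 ± 294 CPM and did not pass either. In both, Setd2-CD4 cre 22 was the high library.

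Gm8730, the copy of Rplp0 shown above, rose from 13758 and 14016 counts in WT to 17935 and 15382 in Setd2-CD4 cre. Its log2 fold change was 0.58 (standard error 0.14, adjusted p = 0.0205 in edgeR), and that of Rplp0 was 0.50 (adjusted p = 0.0343). Gm2000, a copy of Rpl35, had 3391 and 3273 counts in the WT libraries against 5111 and 3590 in Setd2-CD4 cre, and its rise of 0.70 (standard error 0.19, adjusted p = 0.0333) stood beside 0.63 for Rpl35. The groups did not overlap in scaled CPM for either. Gm2000 did not pass with library totals (adjusted p = 0.0505 in edgeR). Gm9493, a copy of Rps7 and the most abundant opposite-strand transcript, had 405 ± 25.1 against 461 ± 64.1 CPM, overlapped between the genotypes and did not pass (log2 fold change 0.19).

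Mitochondrial copies held a further 15.4% of the counts in 10 transcripts, all tested, of which none was called in edgeR. At an unadjusted p under 0.05 2 were higher and 3 lower, DESeq2 called 1 lower and limma 3 lower. Gm10925, identical to mt-Atp6, had 9221 and 9774 counts in the WT libraries against 10533 and 7410 in Setd2-CD4 cre, so that its Setd2-CD4 cre libraries lay on both sides of WT in scaled CPM. Gm13340, a copy of mt-Co1, the catalytic subunit of cytochrome oxidase, had 218 ± 9.25 against 274 ± 19.4 CPM and a log2 fold change of 0.33 (adjusted p = 0.0511 in edgeR).

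Gm7367 and Gm10282 are set beside the gene each matches best. Gm7367 had 897 and 883 counts in the WT libraries against 1824 and 1430 in Setd2-CD4 cre, and both Setd2-CD4 cre libraries were above both WT libraries. Its log2 fold change of 1.19 (standard error 0.15, adjusted p = 0.00213 in edgeR) was beside 1.15 for Ubald2. Gm10282, a copy of Hmgn2, a nucleosome-binding protein, fell from 244 and 244 counts to 48 and 60, by 1.87 on the log2 scale (adjusted p = 0.00129), where Hmgn2 fell by 1.60. Gm10282 was chosen after its values were seen.

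Copies and their best matches are compared over 126 pairs with both tested. Their log2 fold changes had Pearson's r of 0.52 and Spearman's rho of 0.61, and 98 had the same sign. Of the 24 copies called, 15 had a match called in the same direction, 3 a match called in the opposite direction and 6 a match that was not called. In the 108 pairs whose matched gene has another kind of name, r was 0.70 and rho 0.68, and 86 had the same sign. The correlation is across genes that share libraries and, by construction, sequence and possibly reads. Of the 20 called copies among these 108, 13 went with a matched gene called in the same direction and 1 with one called in the opposite direction. The latter was Gm6793, a copy of Hnrnpa3, an RNA-binding protein with 31 matching genes, which fell by 0.41 on the log2 scale while Hnrnpa3 rose by 0.96. How reads shared between copies were counted is not given in the sources used here, so the source of the reads on these transcripts cannot be told apart.

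**Figure D3:**
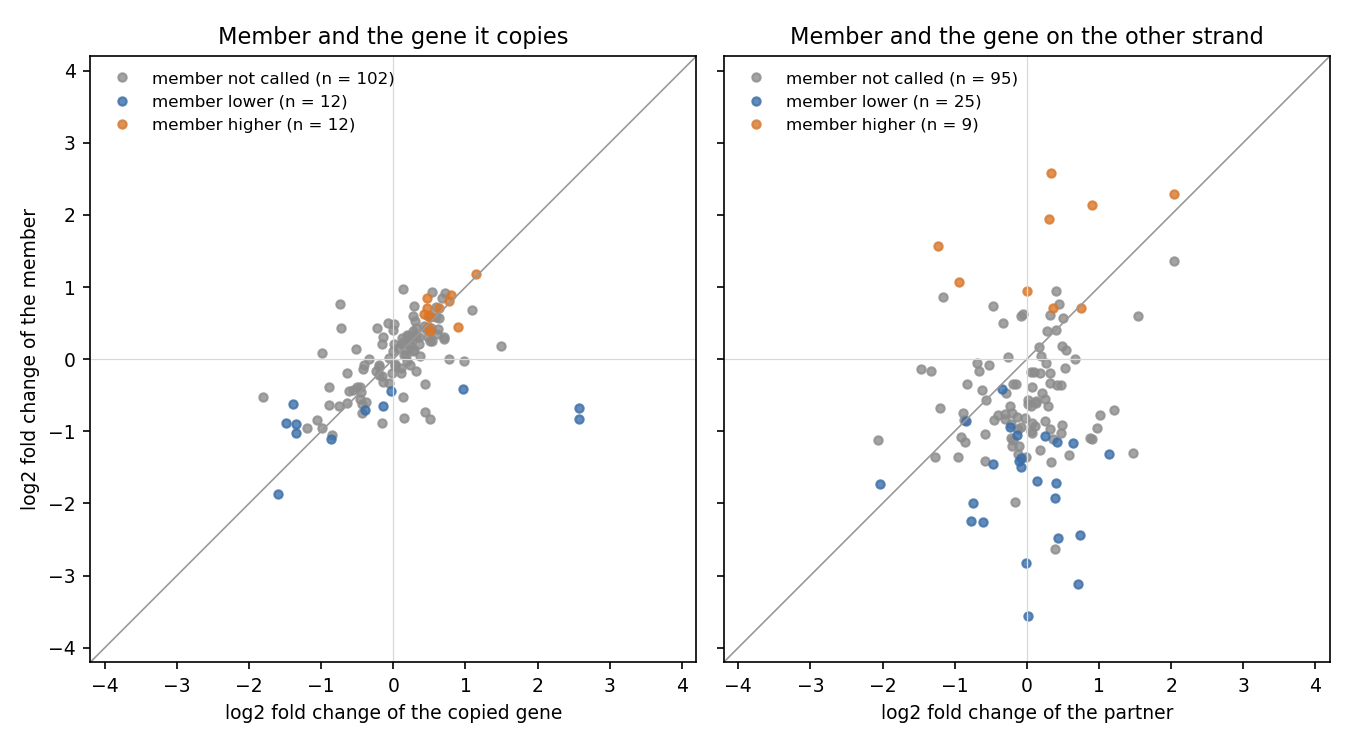
Log2 fold change of a predicted transcript (y axis) against that of the gene it copies (left, 126 pairs) and of the gene it overlaps on the other strand (right, 129 pairs), with the line of equal change and colours for the transcript's own call in edgeR. Points on the left lie at a median distance of 0.21 above or below the line, and on the right most lie below it, by a median of 0.65.

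Among intergenic transcripts called higher with at least 10 counts in each Setd2-CD4 cre library the largest rise was that of Gm26917 (ENSMUSG00000097971, chr17:39843013-39846341, plus strand), annotated as a long intergenic noncoding RNA. It had 554 and 513 counts in the WT libraries against 3936 and 2532 in Setd2-CD4 cre, 42.2 and 39.0 against 383 and 232 CPM. Both Setd2-CD4 cre libraries were far above WT and differed from each other. The mean went from 40.6 ± 2.25 to 307 ± 107 CPM, 7.57-fold, with a log2 fold change of 2.92 (standard error 0.26, adjusted p = 0.00211 in edgeR). RefSeq places Rn18s-rs5, a copy of the 18S ribosomal RNA gene, 12 bases past its end. Gm42418, an opposite-strand member that shares 1245 bases with Rn18s-rs5, had 850 and 923 counts in the WT libraries against 1122 and 797 in Setd2-CD4 cre and did not pass the test (log2 fold change 0.43, adjusted p = 0.122). The difference between these 2 changes was not tested, and how much ribosomal RNA each library held was not measured here.

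Gm11974, a spliced noncoding transcript on chromosome 11, had 370 and 404 counts in the WT libraries against 865 and 591 in Setd2-CD4 cre. Its groups did not overlap, and the log2 fold change was 1.23 (standard error 0.21, adjusted p = 0.0068 in edgeR). The nearest gene start, 7795 bases away on the same strand, is that of Myo1g, a myosin of blood cells, which rose by 0.65. Gm4926, near Dppa1, rose from 7 and 8 counts to 21 and 38, and Gm15326, near Map3k1, from 55 and 57 to 100 and 77.

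Gm15411 and Gm8013 rose by 2.14 and 1.87 on the log2 scale from fewer than 10 counts in each WT library. Gm8979, a pseudogene at a cluster of large interferon-inducible GTPase copies near Gvin1, had 4 and 10 counts in the WT libraries against 16 and 53 in Setd2-CD4 cre, with a log2 fold change of 2.57 (standard error 0.70, adjusted p = 0.0303 in edgeR). Its relatives named here were chosen after their values were seen. Gm8989, with 98.9% identity to Gm8979, had 4 and 3 counts in the WT libraries against 7 and 9 in Setd2-CD4 cre, with no overlap, and was not tested. Gm8995 and Gm1966 moved the other way. Gm8995 had 6829 and 6428 counts in the WT libraries against 2190 and 3853 in Setd2-CD4 cre and fell by 0.83 (adjusted p = 0.0485), and Gm1966 fell by 0.67 from 482 and 453 counts to 205 and 269. Gm8979 was not called without Setd2-CD4 cre 24 (log2 fold change 1.53, adjusted p = 0.141).

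Among intergenic transcripts called lower with at least 10 counts in each WT library the largest fall was that of Gm13387 (ENSMUSG00000087028, chr2:25122603-25145396, minus strand), a noncoding RNA whose counts were 28 and 38 in the WT libraries against 0 and 6 in Setd2-CD4 cre. Its level was 2.51 ± 0.536 against 0.275 ± 0.389 CPM, with no overlap, and the log2 fold change was -3.11 (standard error 0.81, adjusted p = 0.0257 in edgeR). The nearest start is that of Nrarp, a feedback inhibitor of Notch signalling, which fell by 1.27 (adjusted p = 0.00374). Gm38137, 6662 bases from the start of Ctla4, the inhibitory receptor of T cells, had 21 and 15 counts in the WT libraries against 0 and 4 in Setd2-CD4 cre, while Ctla4 rose by 0.56. Gm29650 on chromosome Y, Gm21967 near Ccl28 and Gm42638 near Scap fell by 2.90, 2.86 and 2.66 on the log2 scale, each with at most 4 counts in any Setd2-CD4 cre library. Of 2 transcripts tested on chromosome Y only Gm29650 was called, and the fit held no term for the sex of the mice.

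More abundant intergenic falls, chosen after their values were seen, had more counts behind them. Gm17767 on chromosome 1, a noncoding RNA 118293 bases from the nearest start, had 660 and 764 counts in the WT libraries against 276 and 243 in Setd2-CD4 cre. Its mean was 54.2 ± 5.54 against 24.6 ± 3.25 CPM, with no overlap and a log2 fold change of -1.14 (standard error 0.16, adjusted p = 0.00232 in edgeR). Gm15675, which starts 1836 bases past the end of Cd55, a complement regulator, had 431 and 388 counts against 91 and 163, and fell by 1.39 (adjusted p = 0.00646).

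Satb1, the chromatin organiser of T cells, is the nearest start of 5 transcripts without a copy, more than any other gene, and the locus was chosen after the values were seen. All 5 were tested, 4 fell and Satb1 itself did not pass the test at 997 ± 95.7 against 939 ± 17.7 CPM (log2 fold change -0.09, edgeR adjusted p = 0.626). Gm6934, which covers the start of Satb1 on the other strand, had 54 and 51 counts in the WT libraries against 11 and 19 in Setd2-CD4 cre and fell by 1.50 on the log2 scale. Gm37593, Gm37266 and Gm37176 lie 9571, 16949 and 25877 bases from that start, pointing away from the gene, and fell by 1.27, 1.09 and 0.77. In each of the 4 both Setd2-CD4 cre libraries were below both WT libraries. Gm19585, 315999 bases away, had 13.0 ± 2.03 against 18 ± 1.91 CPM and did not pass the test (adjusted p = 0.099).

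**Figure D4:**
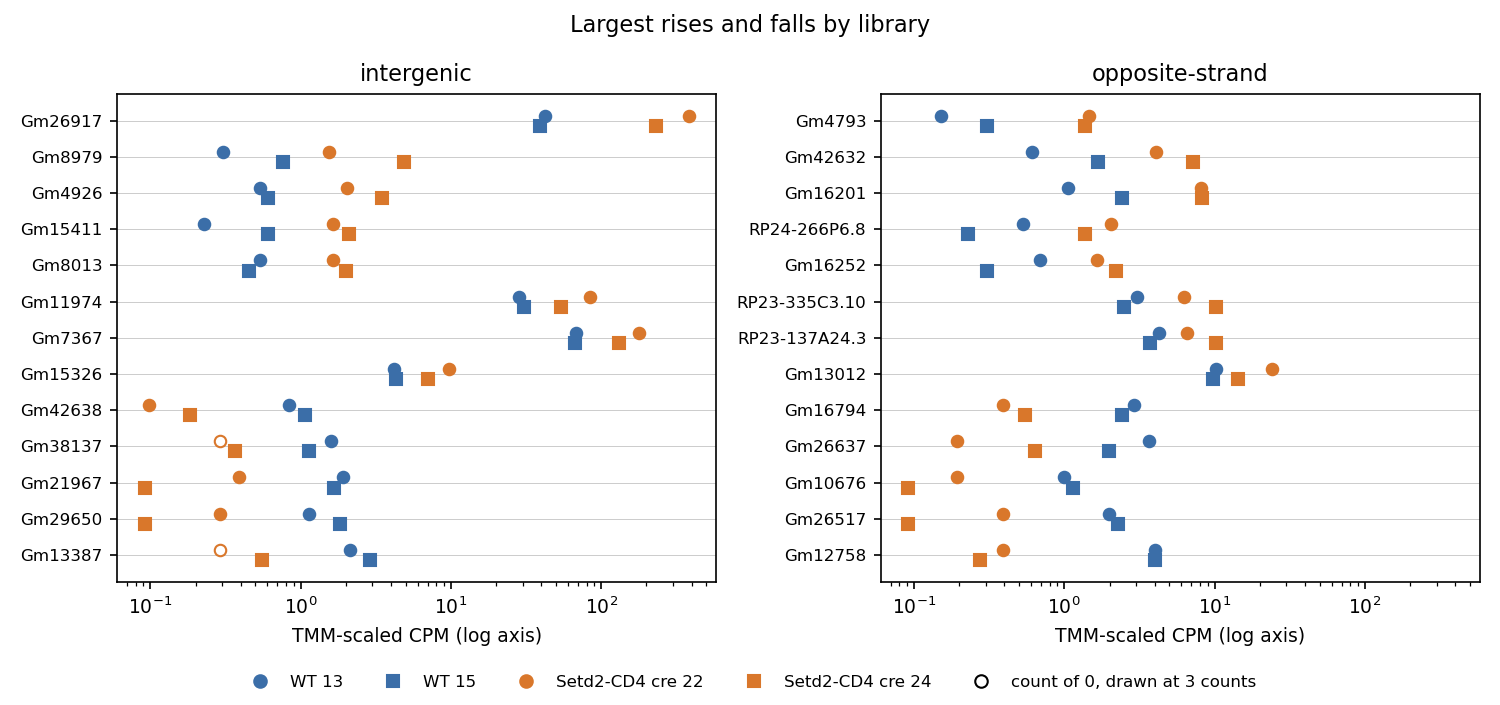
TMM-scaled CPM (x axis, log scale) in each library for the largest rises and falls among intergenic (left) and opposite-strand (right) transcripts, with open symbols where the count was 0, drawn at the level of 3 counts. The transcripts shown were selected to have no overlap between the 2 genotypes. Most values lie under 10 CPM, Gm26917, Gm11974 and Gm7367 being among the exceptions.

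Opposite-strand transcripts and the genes they overlap are set side by side next. Most called transcripts had a partner that was not called. Over all genes tested 30.7% were called in either direction, so this is no result about the pairs. Over 129 pairs with both tested, Pearson's r between the log2 fold changes was 0.09 and Spearman's rho 0.08, across genes that share libraries. The median difference, transcript minus partner, was -0.65. Of 34 called transcripts in these pairs, 6 had a partner called in the same direction, 8 a partner called in the opposite direction and 20 a partner that was not called. The deposited counts come without a statement on strand, and for transcripts that share exon bases with a partner the reads of the 2 strands may not be separated.

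Exon sharing could be worked out for 303 opposite-strand transcripts. The 69 that share no exon base with any gene on the other strand had 38 tested, 4 lower (10.5%), 3 higher (7.89%) and a median of -0.53. The 234 that share some had 117 tested, 23 lower (19.7%), 7 higher (5.98%) and a median of -0.78. Of all genes tested 14.5% were called lower, which lies between the shares of these groups. The share called higher was 16.2% of all genes, above that of either group. The difference between the groups was not tested. The 55 without a shared exon base and without a copy summed to 200 and 196 CPM in the WT libraries against 141 and 150 CPM in Setd2-CD4 cre, 1.36-fold lower with no overlap.

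The largest named opposite-strand rise by the fitted fold was that of Gm4793, an antisense RNA inside Nav1, with 2 and 4 counts in the WT libraries against 15 and 15 in Setd2-CD4 cre. Its log2 fold change was 2.58 (standard error 0.64, adjusted p = 0.0198 in edgeR), and that of Nav1 was 0.34 and did not pass. Gm16201 on chromosome 7 had 14 and 32 counts in the WT libraries against 84 and 90 in Setd2-CD4 cre, 1.75 ± 0.967 against 8.21 ± 0.0487 CPM, and a log2 fold change of 2.22 (standard error 0.39, adjusted p = 0.00587). Gm42632 covers the start of Bend4, had 8 and 22 counts in the WT libraries against 42 and 78 in Setd2-CD4 cre, and its rise of 2.29 went with one of 2.04 in Bend4.

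The other named rises differed in how their partner behaved. RP24-266P6.8 rose by 2.13 inside Itpr1, the calcium channel of the endoplasmic reticulum, which rose by 0.91. RP23-335C3.10 had 40 and 33 counts in the WT libraries against 64 and 112 in Setd2-CD4 cre and rose by 1.57, while its partner Retsat, retinol saturase, fell by 1.24. Tgoln1, which adjoins Retsat on the other strand, rose by 0.56 (adjusted p = 0.0417 in edgeR). Gm16252 and RP23-137A24.3 rose by 1.94 and 1.07 beside Tmem108 and Hddc3, which did not pass. Bfsp2, next to Tmem108, rose by 1.89 (adjusted p = 0.0469 in edgeR), and Man2a2, which overlaps Hddc3, did not pass. Gm13012, which shares no exon base with Ece1, had 135 and 128 counts in the WT libraries against 249 and 156 in Setd2-CD4 cre and rose by 0.94, while Ece1 had a log2 fold change of 0.00.

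Among opposite-strand transcripts called lower with at least 10 counts in each WT library the largest fall was that of Gm12758 (ENSMUSG00000085105, chr7:34234377-34240207, plus strand), an antisense RNA that covers the end of 4931406P16Rik. It had 53 and 53 counts in the WT libraries against 4 and 3 in Setd2-CD4 cre, 4.04 and 4.03 against 0.389 and 0.275 CPM, so that the groups stood well apart. The mean was 11.9-fold lower, with a log2 fold change of -3.57 (standard error 0.48, adjusted p = 0.00218 in edgeR). Its partner had a log2 fold change of 0.02, and Gpi1, a glycolytic enzyme whose start is the nearest, rose by 0.51.

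Gm26517 fell by 3.12 on the log2 scale from 26 and 30 counts to 4 and 1, inside Heatr5a, which rose by 0.71. Gm16794 fell by 2.47, covering the end of Atr, a kinase of the DNA damage response, which rose by 0.43. Gm10676, over the start of Mypop, fell by 2.82, and Gm26637, over the end of Sult6b1, by 2.70. Mypop did not pass the test, and Sult6b1 was not tested. Other genes at these places fell too. Mypopos, which also overlaps Mypop on the other strand, fell by 2.75 (adjusted p = 0.00295 in edgeR). Eif2ak2, beside Sult6b1, fell by 1.19 (adjusted p = 0.00232 in edgeR). Whether these falls are linked to those of Gm10676 and Gm26637 was not tested.

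Other opposite-strand falls at genes of T cells, chosen after their values were seen, included those at Il6ra and Il21. Gm42809 at the start of Il6ra, the receptor chain for interleukin 6, fell by 2.24 on the log2 scale from 29 and 25 counts to 6 and 3, and Il6ra fell by 0.78.

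Gm12534 lies inside Il21, a cytokine of helper T cells, and all of its exon bases are shared with it. It had 239 and 280 counts in the WT libraries against 86 and 145 in Setd2-CD4 cre and fell by 0.86, beside 0.84 for Il21, and which strand the reads came from cannot be told apart. Gm16754 at Keap1, the sensor of oxidative stress, had 411 and 462 counts against 132 and 133 and fell by 1.41 (adjusted p = 0.00133 in edgeR), where Keap1 had -0.11 and did not pass.

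Gm16586, also chosen after its values were seen, was among the most abundant of the falls. It had 3619 and 3169 counts in the WT libraries against 1016 and 1461 in Setd2-CD4 cre, 258 ± 24.5 against 116 ± 24.7 CPM, with no overlap and a log2 fold change of -1.15 (standard error 0.16, adjusted p = 0.00298 in edgeR). It overlaps the end of Cox20, an assembly factor of cytochrome oxidase, on the other strand and starts 172 bases past the end of Hnrnpu on its own strand. Cox20 had a log2 fold change of 0.42 and did not pass. Gm16586 is among the 20 transcripts not found in GENCODE M21, so its exons and copies are not described.

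By position against the partner, transcripts inside a gene on the other strand had 61 tested, 7 higher and 8 lower (13.1%), with a median of -0.43. Those that cover the partner's start had 48 tested, 1 higher and 8 lower (16.7%, median -0.80), and those that cover its end had 43 tested, 1 higher and 11 lower (25.6%, median -0.93). Over all genes 14.5% were called lower, which the first 2 shares are near. The differences between these positions were not tested.

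The tested transcripts are given next by distance to the nearest start of another gene. Within 1 kb of a start 106 transcripts were tested, of which 1 rose (0.943%, against 16.2% of all genes) and 15 fell (14.2%, against 14.5%), with a median log2 fold change of -0.74. From 1 to 5 kb 59 were tested, 3 rose and 16 fell (27.1%, median -0.77). From 5 to 50 kb 200 were tested, 14 rose and 30 fell (15%, median -0.34), and beyond 50 kb 115 were tested, 12 rose and 22 fell (19.1%, median -0.29). These values include the copies, so distance is not separated from copy status. They also rest on the low-count filter and are not evidence of a direction. No test of the distances against each other was run.

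Of the 113 divergent transcripts, which start within 1 kb of a gene and point away from it, 63 were tested, none rose and 8 fell in the edgeR fit. The falls were 12.7%, near the 14.5% of all genes, and so no result about these transcripts. At an unadjusted p under 0.05 none was higher and 20 were lower, and DESeq2 and limma called none higher and 3 and 23 lower. The 8 that fell in edgeR were Gm16576 at Sun2, Gm17705 at Prrc2a, Gm26799 at Rad18, Gm9958 at Ankrd17, Gm10501 at Lsm2, Gm12522 at Psrc1, Gm15545 at Prmt1 and RP23-335G1.1 at Rps13, named because the count is small and after their values were seen. Gm16576 had 155 and 163 counts in the WT libraries against 34 and 60 in Setd2-CD4 cre and fell by 1.45 on the log2 scale, while Sun2, a protein of the nuclear envelope, had -0.18. Of the 8 neighbours only Rad18, a ubiquitin ligase of DNA repair, was also called, with a fall of 0.53. Transcripts that start within 10 kb past the end of a gene on their own strand numbered 172, with 101 tested, 6 higher, 11 lower (10.9%) and a median of -0.43, near the median of all those tested.

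**Figure D5:**
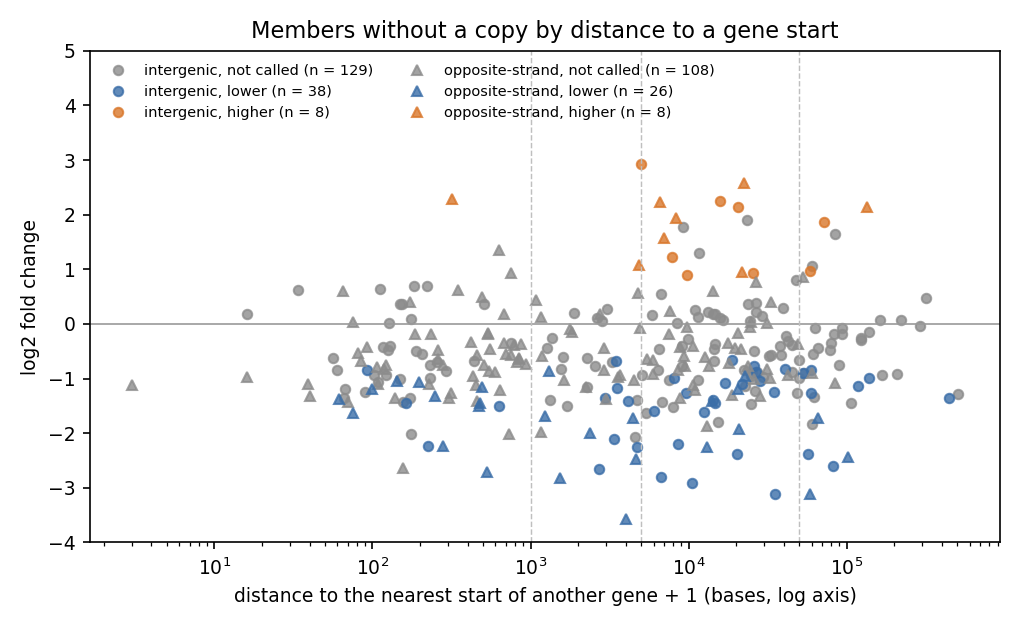
Log2 fold change (y axis) of the 317 tested transcripts without a copy against the distance in bases to the nearest start of a gene with another kind of name, plus 1 (x axis, log scale), with circles for intergenic and triangles for opposite-strand transcripts and dashed lines at 1, 5 and 50 kb. Points called higher lie mostly beyond 1 kb, and points called lower are spread over all distances.

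By annotated class, the shares called are read against 16.2% higher and 14.5% lower over all genes. Long intergenic noncoding RNAs had 90 tested, 7 higher (7.78%) and 19 lower (21.1%). Antisense RNAs had 84 tested, 4 higher (4.76%) and 13 lower (15.5%), and processed transcripts, another noncoding class, 31 tested, 3 higher and 3 lower (9.68% each). The class TEC, models still awaiting experimental evidence, had 63 tested, 3 higher (4.76%) and 14 lower (22.2%). Models annotated as protein-coding had 99 tested, 2 higher (2.02%) and 21 lower (21.2%). Of 122 annotated pseudogenes 86 were tested, with 10 higher (11.6%) and 6 lower (6.98%) and a median of 0.10. The classes were not tested against each other. Of the 64 falls without a copy 18 were long intergenic, 13 antisense, 14 TEC and 10 annotated as protein-coding.

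Predicted KRAB zinc finger genes, which encode repressors that bind DNA and act largely on transposable elements, are a protein-coding group among the 809. The deposited descriptions give 15, of which 12 were tested, 6 fell (50%, against 14.5% of all genes) and none rose (against 16.2%) in the edgeR fit. At an unadjusted p under 0.05 1 was higher and 8 lower, and DESeq2 and limma called none higher and 3 and 8 lower. Gm12258 on chromosome 11 had 469 and 478 counts in the WT libraries against 110 and 145 in Setd2-CD4 cre, 36 ± 0.448 against 12 ± 1.82 CPM. The groups stood apart, and the log2 fold change was -1.59 (standard error 0.16, adjusted p = 0.00122 in edgeR). Gm5141 on chromosome 13 fell by 1.27 from 225 and 265 counts to 86 and 78, and Gm4944 on chromosome 17 by 0.84.

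The other 3, Gm14391, Gm6710 and Gm14326, lie in an array on chromosome 2, and both Gm6710 and Gm14326 match Gm14391 with at least 95.3% identity over the parts aligned. They fell by 1.35, 1.02 and 0.89, and how reads were shared among them is not given. Gm13051, Gm13157 and Gm13212, on chromosome 4, had positive log2 fold changes of 0.94, 0.45 and 0.42 and did not pass. Gm13139, Gm5595 and Gm14399 had -1.05, -0.72 and -0.39 and did not pass either. The KRAB transcripts were singled out after their values were seen.

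Start windows of 300 bases, 250 before and 50 after a RefSeq start, were found within 100 bases of the deposited start for 139 of the 809, from 229 that match a RefSeq symbol. In the 119 without a copy the median GC content was 56.3%, against 52.7% over all 32851 RefSeq windows. The GC box GGGCGG was present on either strand in 47.1% against 35.7%, CCGGAAG in 16.8% against 8.86% and the TATA element TATAAA in 6.72% against 13.6%. Matches were counted whether or not they overlapped another motif. Among the 17 windows of transcripts called lower, 9 held GGGCGG and 5 held CCGGAAG, the latter including the 2 copies in the window of Gm13387. Among the 52 of transcripts not called 25 held GGGCGG and 7 held CCGGAAG, so the share with GGGCGG was near that of the falls (48.1% and 52.9%), and among the 5 of transcripts called higher none held GGGCGG and 1 held CCGGAAG. A match of letters is not a site, and the shares are given as a description.

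Genes of the machinery known to bear on such transcripts are given by lists chosen with earlier results of these data known. Over all genes 16.2% were called higher and 14.5% lower. Of 24 genes for H3K36 methylation and its readers, all tested, 4 were higher and 2 lower. Of 40 tested genes for transcription elongation and termination, 2 were higher and 7 lower, and of 25 tested genes for nuclear RNA decay, 5 were higher and 2 lower. The medians of the 3 lists were 0.04, 0.08 and 0.06 on the log2 scale, against -0.01 over all genes.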

How the data were processed

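RNA-seq values of 4 libraries, 2 WT and 2 Setd2-CD4 cre, were used, grouped by sample titles. The authors deposited whole-number counts and FPKM values per gene, per the file headers. Bowtie2, RSEM, GRCm38.p6 and mm10 are named in the submitters' processing notes without versions. The sources used here do not give strand use, gene models or the treatment of reads shared between genes. RSEM estimates need not be whole, and whether counts were rounded is not stated.

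Counts of all 34745 genes were tested with edgeR 4.0.16 in R 4.3.3 (TMM, filterByExpr by genotype, robust quasi-likelihood fit) with Benjamini-Hochberg adjustment over the 12927 tested and a threshold of 0.05. The code was tested on simulated data. DESeq2 1.42.0 and limma 3.58.1 on log2(FPKM + 1) were alternatives, as were other scaling factors and filters, each library left out and other membership rules. CPM values are mean ± SD over 2 libraries. Each fold change sets Setd2-CD4 cre against WT. Overlaps and distances come from the table's GRCm38 loci, exons and classes from GENCODE M21, and copies from blastn 2.17.0.

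The members and lists were chosen with earlier results of these data known. Named in each class are the 8 largest rises and 5 largest falls by fitted log2 fold change among called transcripts without overlap and with at least 10 counts in each library of the higher genotype, and the 3 most abundant. All other transcripts named were chosen after their values were seen. A result at another gene is not reported here.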

Additional observations from a re-analysis of the deposited data

How the results depend on the processing

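Depth limits these results: with a median of 49 counts over 4 libraries, 329 of the 809 transcripts were not tested. Counts of calls depended on the libraries and on the tool. Leaving out 1 library gave 4 to 44 intergenic transcripts called higher (20 with all) and 14 to 71 called lower (55 with all), and 2 to 15 and 7 to 44 opposite-strand ones (10 and 28 with all). In the same order the counts were 5, 17, 2 and 9 when WT 13 was left out and 4, 14, 2 and 7 when WT 15 was. They were 23, 70, 10 and 32 when Setd2-CD4 cre 22 was left out and 44, 71, 15 and 44 when Setd2-CD4 cre 24 was. The lone library is assumed to vary like the other group. DESeq2 called 13 intergenic and 5 opposite-strand transcripts higher. Limma on log2 FPKM called 106 intergenic and 54 opposite-strand transcripts lower. Intergenic rises were 11 without annotated pseudogenes and 9 without copies, and intergenic falls 35 at least 5 kb from any gene, since fewer transcripts enter. The cause of the other differences was not tested.

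The share of counts on intergenic transcripts differed by 0.0514 percentage points between genotypes (-0.0926 to 0.195 leaving out 1 library), or 0.219 with TMM-scaled library sizes. That on opposite-strand transcripts differed by -0.0318 (-0.0382 to -0.0255 leaving out 1 library), or -0.0436 without copies and -0.00870 with TMM-scaled sizes.

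Of the 28 named transcripts that were called, Gm11974, Gm12758, Gm16201, Gm26917 and Gm7367 passed in all 11 refits. The call was lost by 22 of 28 without WT 13, by 20 of 27 without WT 15, by 7 when Setd2-CD4 cre 22 was left out, by 8 when Setd2-CD4 cre 24 was, by 10 of 26 with DESeq2 and by 6 with limma, and no direction changed. No paired analysis was possible because the groups share no replicate number.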
